A study of Mus musculus with 12 samples.

Results

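The insulin-like growth factor (IGF) system was read in adipocyte precursor cells of mouse fat through 10 genes chosen by name: the ligands Igf1 and Igf2, the receptors Igf1r and Igf2r, and the binding proteins Igfbp2, Igfbp3, Igfbp4, Igfbp5, Igfbp6 and Igfbp7. All 10 were found by symbol among the 14398 genes counted, and 9 passed the filter on low counts. Adipocyte precursors are stromal cells of fat that can mature into adipocytes. Cell sorting took those negative for CD45 (blood cells) and CD31 (endothelium) and positive for CD29, CD34 and Sca1, whatever their CD24. Their messenger RNA was sequenced from perigonadal fat (VWAT, visceral) and inguinal fat (SWAT, subcutaneous) of male C57Bl6/J mice aged 6 to 8 weeks. The mice ate either a standard diet (SD, labelled day 0) or a high-fat diet with 60% lard (HFD) for 3 days. Depot and diet gave 4 groups, written VWAT_SD, VWAT_HFD, SWAT_SD and SWAT_HFD. Each had 3 libraries, and every library pooled tissue from 3 mice. The mice carried no genetic change that the labels name. SD libraries are labelled day 0 and HFD libraries day 3, so the day and the diet cannot be told apart.

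IGF1 and IGF2 are secreted peptides that drive growth, survival and, in fat precursors, proliferation and differentiation. Both act through the tyrosine kinase receptor IGF1R, while IGF2R takes up IGF2 for degradation and also sorts lysosomal enzymes. The binding proteins hold IGFs outside the cell, which can limit or prolong their access to the receptor, and proteases release the ligand by cutting them. Fat tissue is a known source of IGF1, and cultured preadipocytes are known to secrete IGFs and several of the binding proteins.

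The libraries held 17630284 to 56094076 gene counts, and values are given as CPM, TMM-scaled counts per 1e6 counts. The sort genes Itgb1 (CD29), Cd34 and Ly6a (Sca1) and the fibroblast marker Pdgfra stood at means of 471 to 1557 CPM in each group. The leukocyte gene Ptprc (CD45) stood at 6.93 CPM in SWAT_HFD replicate 2 and at 0.129 to 0.656 in the other 11 libraries, and the endothelial gene Pecam1 (CD31) at 1.44 to 8.66. Besides SWAT_HFD replicate 2, VWAT_HFD replicate 3 stood apart. There Mki67, a gene of cycling cells, was at 32.4 CPM, where replicates 1 and 2 had 61.0 and 114 and VWAT_SD had 5.59 to 10.4.

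On the high-fat diet Igfbp3 was the member that moved most in VWAT precursors. It was at 46.8, 51.9 and 48.6 CPM in VWAT_SD replicates 1 to 3 and at 15.6, 13.6 and 14.6 CPM in VWAT_HFD. The 3 HFD libraries were alike and far below all 3 SD libraries, so the groups did not overlap. Igfbp3 encodes the main IGF carrier of blood, where it forms a complex with IGF and the acid-labile subunit, and it also acts locally on cells. The mean was 49.1 ± 2.58 CPM on SD and 14.6 ± 1.00 on HFD (mean ± SD, n = 3), a 3.37-fold fall (log2 change -1.75, SE 0.218, edgeR quasi-likelihood adjusted p = 0.000793). In bulk RNA, fewer cells that make a transcript and less of it per cell cannot be told apart.

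Igfbp5, whose protein binds IGFs and the extracellular matrix, also fell in VWAT. It was at 246, 259.6 and 214 CPM in VWAT_SD replicates 1 to 3 and at 129, 129 and 168 CPM in VWAT_HFD, again without overlap. The fall was 1.69-fold, from 239.9 ± 23.5 to 142 ± 22.2 CPM (n = 3; log2 change -0.76, SE 0.202, edgeR adjusted p = 0.0246). With 1 library left out, the call of Igfbp5 was lost without VWAT_SD replicate 1 (log2 change -0.74, adjusted p = 0.0667), VWAT_SD replicate 2 (-0.70, 0.0825), VWAT_HFD replicate 1 (-0.69, 0.0831) or VWAT_HFD replicate 2 (-0.69, 0.116). Its adjusted p over all 20 alternatives ranged from 0.00251 to 0.116. For Igfbp3 the range was 8.2e-13 to 0.00617, and its log2 change stayed between -1.86 and -1.70. Igfbp3 was at 14.6 CPM in VWAT_HFD replicate 3 too. Mki67 was at 32.4 CPM there, below the other 2 HFD libraries and above the 5.59 to 10.4 CPM of VWAT_SD. The part of cycling cells in the Igfbp3 values was not tested.

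The sequences just upstream of the genes that the diet and depot results turn on are shown here for Igfbp3 and Igfbp5, which both fell, and for Igf1, which differed between depots. Each is the 250 bases before the gene start, 5′ to 3′ on the gene's strand, from RefSeq on GRCm38.p6. That build is not the mm9 build on which the reads were counted. All 10 members matched an entry of the promoter table, with 14 starts in all. Capitals mark a match to 1 of 4 motifs searched on both strands. They were TATAAA, its variant TATATA that can overlap it, the G-rich GGGCGG and the palindromic GCCNNNGGC.
Igfbp3 (chr11:7213924-7214173, minus strand): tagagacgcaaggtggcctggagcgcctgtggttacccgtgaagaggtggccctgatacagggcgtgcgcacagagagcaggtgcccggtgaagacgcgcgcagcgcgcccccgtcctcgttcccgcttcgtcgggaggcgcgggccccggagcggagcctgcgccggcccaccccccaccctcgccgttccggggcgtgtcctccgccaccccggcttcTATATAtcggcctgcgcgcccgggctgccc
Igfbp5 (chr1:72874866-72875115, minus strand): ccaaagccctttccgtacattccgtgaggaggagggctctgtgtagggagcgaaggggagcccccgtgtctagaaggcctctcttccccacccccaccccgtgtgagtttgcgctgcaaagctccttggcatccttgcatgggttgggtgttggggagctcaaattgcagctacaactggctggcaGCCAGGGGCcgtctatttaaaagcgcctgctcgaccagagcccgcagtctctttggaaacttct
Igf1 (chr10:87860861-87861110, plus strand): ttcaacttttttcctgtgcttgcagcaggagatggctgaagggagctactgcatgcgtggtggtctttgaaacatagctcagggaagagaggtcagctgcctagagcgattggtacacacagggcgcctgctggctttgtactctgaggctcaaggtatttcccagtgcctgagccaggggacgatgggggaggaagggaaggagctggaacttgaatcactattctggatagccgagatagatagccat
The Igfbp3 window was 73.2% G and C and held 1 TATATA, starting 30 bases before the gene start. Of 32851 promoter windows of the same length, 5.2% held that motif. The Igfbp5 window was 58.8% G and C and held 1 GCCNNNGGC, which 13.7% of windows held. In the Igf1 window, at 52.8% G and C, none of the 4 motifs was found. TATAAA was present in 12.4% of all windows and GGGCGG in 32.7%. A match is a description of the letters only.

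Among the ligands, neither passed in VWAT on the diet. Igf1, by far the higher of the 2, was at 858, 964 and 1084 CPM in VWAT_SD and at 819.6, 798 and 836 CPM in VWAT_HFD. Every HFD library was below every SD library, by a small margin (log2 change -0.24, SE 0.11, adjusted p = 0.15). Igf1 passed as lower with library size as the only scaling (log2 change -0.35, adjusted p = 0.0476). That scaling moved the median log2 change of all genes in this comparison from -0.017 to -0.126. Igf2, an imprinted gene that is high in the fetus, was low here, at 4.27, 2.12 and 4.71 CPM in VWAT_SD and 2.54, 2.81 and 1.57 in VWAT_HFD (log2 change -0.68, SE 0.301, adjusted p = 0.142). VWAT_SD replicate 2 lay inside the HFD range. Without that library Igf2 passed as lower (-0.95, adjusted p = 0.0431).

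The receptors did not pass in VWAT. Igf1r was at 15.3 to 21.4 CPM on SD and 18.9 to 22.3 on HFD (log2 change 0.14, SE 0.22, adjusted p = 0.702). Igf2r was at 166 to 199 CPM on SD and 179 to 240.4 on HFD (0.15, SE 0.161, adjusted p = 0.558). Counting strand was not given in the sources used here, so reads of Igf2r and of Igf2 cannot be told apart from those of antisense transcripts at their loci.

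The remaining binding proteins changed less in VWAT, and none passed. Igfbp4, a binding protein that inhibits IGF action until it is cut, was at 918 to 1033 CPM on SD and 815 to 896 on HFD, without overlap (log2 change -0.18, SE 0.102, adjusted p = 0.249). Igfbp6, which prefers IGF2, had a log2 change of -0.14 (SE 0.13, adjusted p = 0.507). Igfbp7, a secreted protein that binds IGFs weakly, had a log2 change of -0.01 (SE 0.127, adjusted p = 0.982). Igfbp2 was counted at only 1 to 22 reads per library, at most 0.441 CPM. It was removed by the filter, and without the filter its adjusted p was 0.634 or more in all 5 comparisons.

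In all, 2 of the 9 members tested passed in VWAT, both lower. Of all 14266 genes tested 15.6% passed, 8.64% as higher and 6.98% as lower. The VWAT libraries of the diets did not overlap for 4 members, Igf1, Igfbp3, Igfbp4 and Igfbp5, all lower on HFD, where 33.0% of all genes did not overlap, 15.5% higher and 17.5% lower. The median log2 change of the 9 was -0.18, beside -0.017 over all genes. The count was 1, Igfbp3 alone, without VWAT_SD replicate 1, VWAT_HFD replicate 1 or VWAT_HFD replicate 2. Without VWAT_SD replicate 2 it was 2, with Igf2 in the place of Igfbp5.

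Other cell markers moved with the diet in VWAT. The 6 cycling genes summed to 16.2 to 25.9 CPM on SD and 77.3 to 297 on HFD, and all 6 rose. The 7 leukocyte genes summed to 10.6 to 17 CPM on SD and 6.82 to 10.1 on HFD, with Cd14 lower. Of 7 mural genes counted 2 rose and 1 fell, with sums of 109 to 121 and 105 to 119 CPM. The 8 endothelial genes summed to 195 to 250 CPM on SD and 188 to 231 on HFD, most of it Tek, and none passed. Endothelial cells are a known source of Igfbp3 in other tissues, and the defining genes Pecam1 and Cdh5 had means of 4.51 and 8.09 CPM on SD and 5.27 and 7.14 on HFD. The part of these markers in the changes of Igfbp3 and Igfbp5 was not tested.

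**Figure D1:**
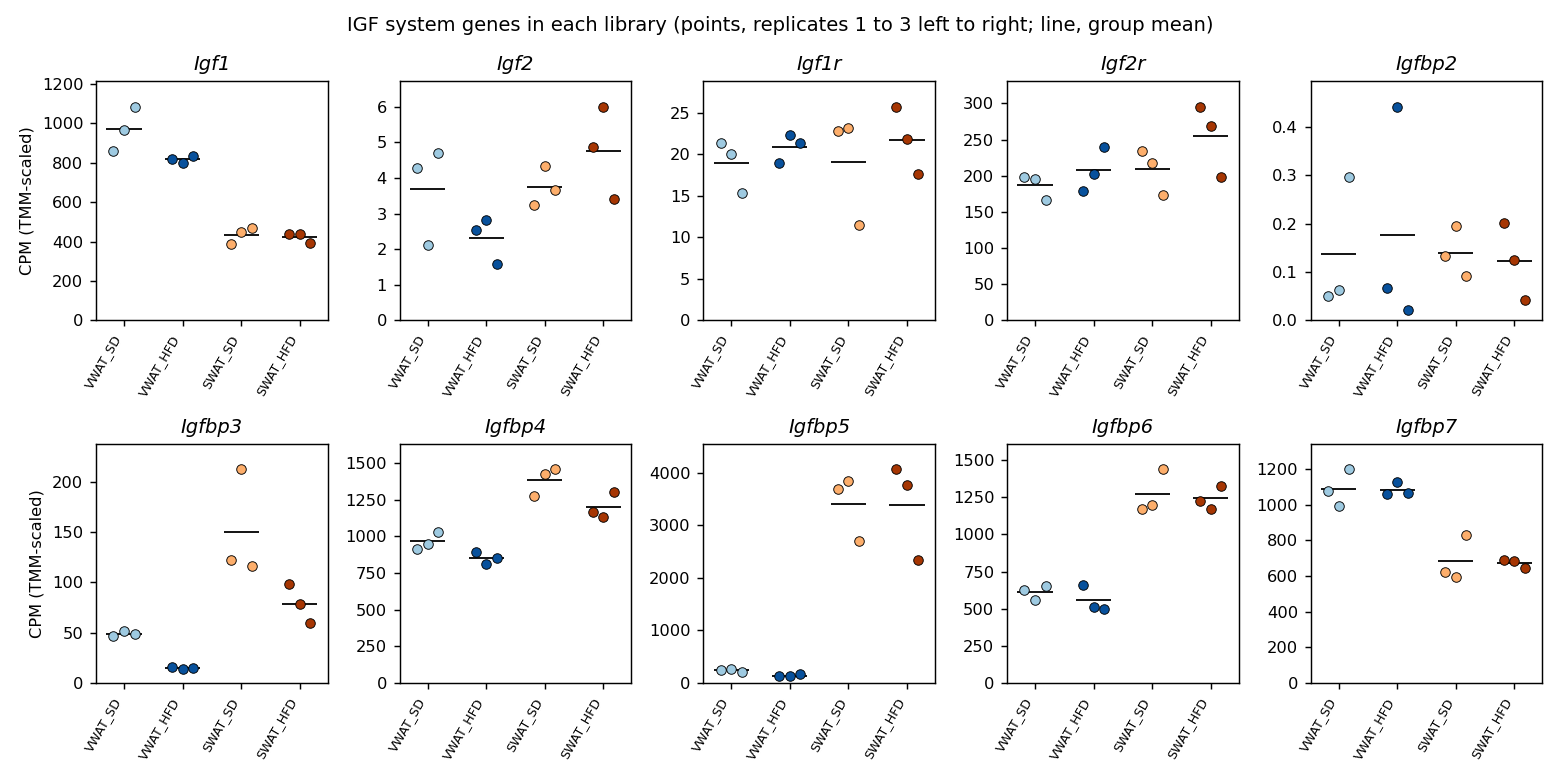
CPM of each of the 10 genes (y axis, linear from 0, scale per panel) in the 4 groups (x axis); points are libraries, replicates 1 to 3 from left to right, and lines are group means. Igfbp3 sits at 13.6 to 15.6 CPM in VWAT_HFD against 46.8 to 51.9 in VWAT_SD, and Igfbp5 is at 2340 CPM or more in the 6 SWAT libraries and at 259.6 or less in the VWAT libraries.

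In SWAT precursors no member passed on the diet, and Igfbp3 came nearest. It was at 122, 212 and 116 CPM in SWAT_SD replicates 1 to 3 and at 98.2, 78.2 and 59.9 CPM in SWAT_HFD. All HFD libraries were below all SD libraries, and SWAT_SD replicate 2 stood well above the rest. The mean was 150.4 ± 53.7 CPM on SD and 78.8 ± 19.2 on HFD (n = 3; 1.92-fold, log2 change -0.94, SE 0.211, unadjusted p = 0.000648, edgeR adjusted p = 0.0534). Among other alternatives, Igfbp3 passed as lower with DESeq2 (log2 change -0.93, adjusted p = 0.00156), with library size as the only scaling (-1.12, 0.0194) and without VWAT_HFD replicate 3 (-0.94, 0.0277). Its log2 change was -0.61 (adjusted p = 0.191) without SWAT_SD replicate 2 and -0.94 (0.202) without SWAT_HFD replicate 2, and the adjusted p ranged from 0.00156 to 0.202 over 20 alternatives. Library size as the only scaling moved the median of all genes in this comparison from -0.001 to -0.177.

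The other members in SWAT showed small differences. Igfbp5 was at 3682, 3843 and 2699 CPM on SD and 4062, 3766 and 2340 on HFD, so that replicate 3 was the lowest of each group (log2 change -0.01, SE 0.2, adjusted p = 0.992). Igf1 was at 385 to 467 CPM on SD and 394 to 439 on HFD (-0.03, SE 0.111, adjusted p = 0.927). Igf2r had the largest log2 change upward of those above 100 CPM, 0.28 (SE 0.161, adjusted p = 0.442), with overlapping libraries. Igf2, at 3.23 to 4.33 CPM on SD and 3.41 to 6.00 on HFD, had 0.34 (SE 0.305, adjusted p = 0.66). Igf1r, Igfbp4, Igfbp6 and Igfbp7 had log2 changes of 0.16, -0.21, -0.03 and -0.02 and adjusted p of 0.37 or more.

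Thus 0 of 9 members passed in SWAT with edgeR. DESeq2 called 1, Igfbp3, and limma voom 0. Over all genes 1.11% passed with edgeR, 0.967% as higher and 0.147% as lower. The counts over all genes with DESeq2 and limma voom differ and are given with the processing below. Igfbp3 was the single member whose SWAT libraries did not overlap between diets, against 21.8% of all genes, 11.6% higher and 10.2% lower. The median log2 change of the members was -0.02, beside -0.001. In the same libraries the 6 cycling genes summed to 8.67 to 14.8 CPM on SD and 65.8 to 92.5 on HFD, where 5 of them rose, and the leukocyte genes to 11.2 to 13.7 on SD and 12.4, 40.3 and 15.6 in SWAT_HFD replicates 1 to 3. The adipocyte genes summed to 51 to 63.9 CPM on SD and 26.5 to 45.6 on HFD, most of it Plin4 (log2 change -0.80, adjusted p = 0.0658). The others counted went the other way. Adipoq, Plin1 and Cidec had log2 changes of 0.28, 0.62 and 0.23, with overlapping libraries, and none passed. The endothelial genes summed to 217 to 318 CPM on SD and 249 to 318 on HFD, most of it Tek. Their median log2 change was 0.92, and none passed. Pecam1 and Cdh5 had means of 2.76 and 3.24 CPM on SD and 5.54 and 6.74 on HFD, with overlapping libraries. The part of these markers in the Igfbp3 values was not tested.

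Whether the diet acted differently in the depots was tested as an interaction, the VWAT change minus the SWAT change. No member passed with edgeR, DESeq2 or limma voom. With edgeR 0% of all genes passed. Igfbp3 fell by 0.81 more on the log2 scale in VWAT (SE 0.299, adjusted p = 0.579). For Igfbp5 the difference was -0.75 (SE 0.284, adjusted p = 0.587) and for Igf2 it was -1.02 (SE 0.428, adjusted p = 0.636). So the larger VWAT change of Igfbp3 and the VWAT change of Igfbp5 were not shown to differ from those in SWAT.

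**Figure D2:**
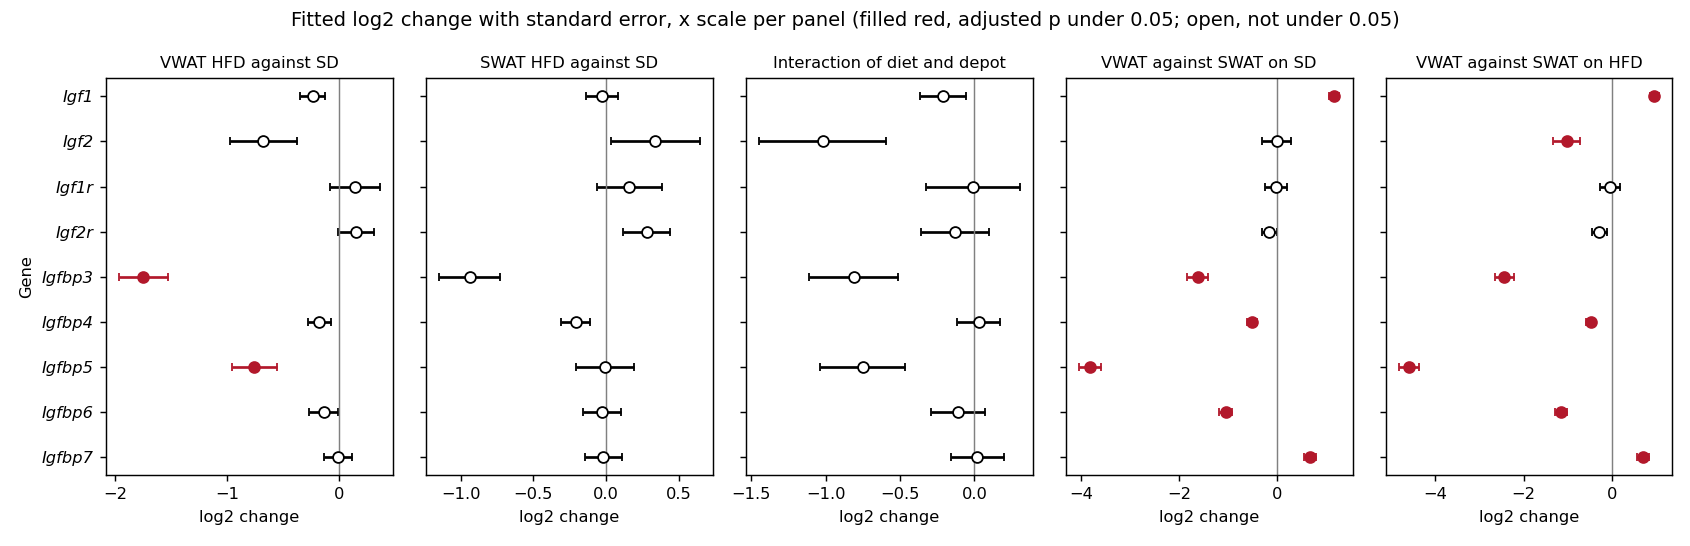
Fitted log2 change (x axis, scale per panel) of the 9 tested members (y axis) in the 5 comparisons; points are estimates, bars are standard errors, and filled red points passed. Igfbp3 and Igfbp5 are the filled points of the VWAT diet panel, and Igfbp5 reaches -4.58 between depots on HFD.

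On SD, VWAT precursors had more Igf1 and Igfbp7 and less Igfbp3, Igfbp4, Igfbp5 and Igfbp6 than SWAT precursors. The depot comparisons share no libraries with each other, but each shares its libraries with the diet comparisons.

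Igfbp5 had the largest depot difference of the members. It was at 214 to 259.6 CPM in VWAT_SD and at 2699 to 3843 in SWAT_SD, 14.2-fold lower in VWAT (log2 difference -3.83, SE 0.224, adjusted p = 4.6e-08). On HFD it was at 129 to 168 against 2340 to 4062 CPM, 23.9-fold lower (-4.58, SE 0.232, adjusted p = 1.5e-08). Igfbp3 was 3.07-fold lower in VWAT on SD (-1.62, SE 0.214, adjusted p = 7.4e-05). On HFD the difference was 5.39-fold (-2.43, SE 0.223, adjusted p = 2.7e-06). The highest VWAT library of each gene was below its lowest SWAT library on either diet.

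Igfbp6 was at 629, 557 and 652 CPM in VWAT_SD and at 1169, 1199 and 1437 in SWAT_SD, 2.07-fold lower in VWAT (-1.05, SE 0.131, adjusted p = 4.5e-05). On HFD it was 2.23-fold lower (-1.15, SE 0.132, adjusted p = 2.0e-05). Igfbp4 differed less. It was at 918, 951 and 1033 CPM in VWAT_SD and at 1277, 1427 and 1458 in SWAT_SD, 1.43-fold lower (-0.52, SE 0.102, adjusted p = 0.00178), and 1.41-fold lower on HFD (-0.49, SE 0.102, adjusted p = 0.00263). Its calls were lost with library size as the only scaling (-0.30, adjusted p = 0.062, and -0.21, adjusted p = 0.156), which moved the median of all genes to 0.236 on SD and 0.301 on HFD.

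Igf1 ran the other way. It was at 858 to 1084 CPM in VWAT_SD and at 385, 447 and 467 CPM in SWAT_SD, 2.24-fold higher in VWAT (1.16, SE 0.112, adjusted p = 4.0e-06). On HFD, where it was at 437, 439 and 394 CPM in SWAT, it was 1.93-fold higher in VWAT (0.95, SE 0.111, adjusted p = 2.4e-05). Igfbp7 was at 1078, 991 and 1198 CPM in VWAT_SD and at 625, 596 and 831 in SWAT_SD, 1.59-fold higher in VWAT (0.67, SE 0.128, adjusted p = 0.00141). The HFD difference was 1.61-fold (0.69, SE 0.128, adjusted p = 0.00114). Both genes kept these calls in every alternative run.

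Igf2 passed between depots on HFD, where it was at 2.54, 2.81 and 1.57 CPM in VWAT and 4.88, 6.00 and 3.41 in SWAT, 2.04-fold lower in VWAT (-1.03, SE 0.308, adjusted p = 0.0244). These values rest on 73 to 194 reads per library. The call was lost without VWAT_HFD replicate 3 (-0.82, adjusted p = 0.0663), SWAT_HFD replicate 1 (-1.01, 0.0606) or SWAT_HFD replicate 2 (-0.81, 0.126), and with VWAT_HFD replicate 3 and SWAT_HFD replicate 2 both left out (-0.58, 0.243). On SD the difference of Igf2 was -0.01 (SE 0.299, adjusted p = 0.983). Igf1r and Igf2r did not pass on either diet, with log2 differences of -0.03 and -0.16 on SD and -0.05 and -0.29 on HFD. Igf2r passed as lower on HFD without SWAT_HFD replicate 3 (-0.45, adjusted p = 0.0493). It also passed on SD in a fit of the 6 SD libraries paired by replicate number (-0.15, adjusted p = 0.0365). That fit changed both the libraries used and the pairing, and 6662 of all genes passed in it. Without the block the 6 libraries gave 4243, and Igf2r an adjusted p of 0.373. With all 12 libraries, 3669 passed without the replicate block and 3663 with it.

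By count, 6 of 9 members passed between depots on SD, 2 higher and 4 lower in VWAT, where 25.7% of all genes passed, 13.2% as higher and 12.5% as lower. On HFD it was 7 of 9, 2 higher and 5 lower, against 26.8%, with 13.4% higher and 13.4% lower. The same members were those without overlap of libraries, beside 45.1% of all genes on SD (23.6% higher, 21.4% lower) and 36.0% on HFD (17.7% higher, 18.2% lower). Their median log2 differences were -0.16 and -0.49, beside 0.018 and 0.017 over all genes. The HFD count was 6 without VWAT_HFD replicate 3, SWAT_HFD replicate 1 or SWAT_HFD replicate 2 and 8 without SWAT_HFD replicate 3. Of the 7 adipocyte precursor genes, 3 were lower and 0 higher in VWAT on SD. Cd34, Ly6a and Col1a1 were lower, with log2 differences of -0.36, -1.07 and -2.17. On HFD the same genes were lower, and Itgb1 (0.31) and Lum (0.61) were higher. Markers of other cells also differed between depots. Of 6 mesothelial genes counted, 4 were higher and Krt19 lower in VWAT on each diet, summing to 3.85 to 6.11 CPM in VWAT_SD and 2.22 to 4.03 in SWAT_SD, and Msln had a mean of 1.13 CPM in VWAT_SD and 0.0072 in SWAT_SD. Endothelial genes summed to 195 to 250 CPM in VWAT_SD and 217 to 318 in SWAT_SD, most of it Tek, with none passing. Tek and Vwf had lower means in VWAT_SD, while Pecam1, Cdh5, Kdr, Emcn, Flt1 and Cldn5 had higher ones. Pecam1 and Cdh5 had means of 4.51 and 8.09 CPM in VWAT_SD and 2.76 and 3.24 in SWAT_SD. Mural genes summed to 109 to 121 and 104 to 127 CPM, but 5 of 7 differed on SD. Des was 15-fold and Mcam 8.26-fold higher in VWAT, while Abcc9 was 12-fold, Kcnj8 8.07-fold and Cspg4 2.11-fold lower. On HFD the leukocyte genes Csf1r, Cd14 and Ptprc and the endothelial gene Tek were lower in VWAT. The 4 adipocyte genes counted summed to 2.29 to 3.87 CPM in VWAT_SD and 51 to 63.9 in SWAT_SD, nearly all of it Plin4, while Adipoq had means of 0.319 and 0.269. On HFD all 6 cycling genes were higher in VWAT, though the libraries of each overlapped. The call of Mki67 was lost in 6 of 20 alternatives. The part of these markers in the depot differences was not tested.

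To set the members beside each other, CPM was divided by exon length in kilobases (CPM per kb), with lengths from GENCODE M21. On this scale Igfbp7 was the highest member in VWAT_SD, at 901 ± 86.3 (n = 3), followed by Igfbp6 (551), Igfbp4 (247), Igf1 (97.8), Igfbp5 (39.9), Igf2r (21.0) and Igfbp3 (15.7). Igf1r (1.66), Igf2 (0.704) and Igfbp2 (0.0936) were lowest. No neighbours in that order overlapped in their VWAT_SD values. In SWAT_SD the order per kb was Igfbp6 (1140), Igfbp5 (567), Igfbp7 (566), Igfbp4 (354), Igfbp3 (48.0), Igf1 (43.7) and Igf2r (23.5). There Igfbp5 overlapped Igfbp7 and Igfbp3 overlapped Igf1, so those pairs did not differ beyond their spread. On HFD, Igfbp3 came down to 4.65 per kb in VWAT and to 25.2 in SWAT, where it overlapped Igf2r (28.6). The order depends on the lengths used, which are those of all annotated exons.

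The binding proteins together made up a different mixture in each depot. Of their summed CPM per kb, Igfbp7 took 51.3 ± 0.975% in VWAT_SD and 21.1 ± 2.86% in SWAT_SD (n = 3). Igfbp5 took 2.3 ± 0.393% and 21.4 ± 4.8%, and Igfbp6 took 31.4 ± 0.835% and 42.5 ± 2.6%. Igfbp4 held a like share, 14.1 ± 0.788% and 13.2 ± 0.499%. Igfbp3 was a small part, 0.82 to 1.02% of the sum in VWAT_SD and 0.266 to 0.294% in VWAT_HFD. In SWAT it was 1.31 to 2.57% on SD and 0.775 to 1.17% on HFD. The summed binding protein level was 16.7 to 20.2 times that of Igf1 in VWAT_SD libraries and 18.7 to 20.9 times in VWAT_HFD. It was 58.5 to 65.4 times in SWAT_SD and 57.8 to 62.1 times in SWAT_HFD. These ratios did not overlap between depots and overlapped between diets in each depot. Their size depends on the exon lengths used, 9904 bases for Igf1 but 1112 for Igfbp6 and 1209 for Igfbp7. In CPM not divided by length, Igf1 had a mean of 968.6 in VWAT_SD and Igfbp7 1089. The ratios were not tested.

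**Figure D3:**
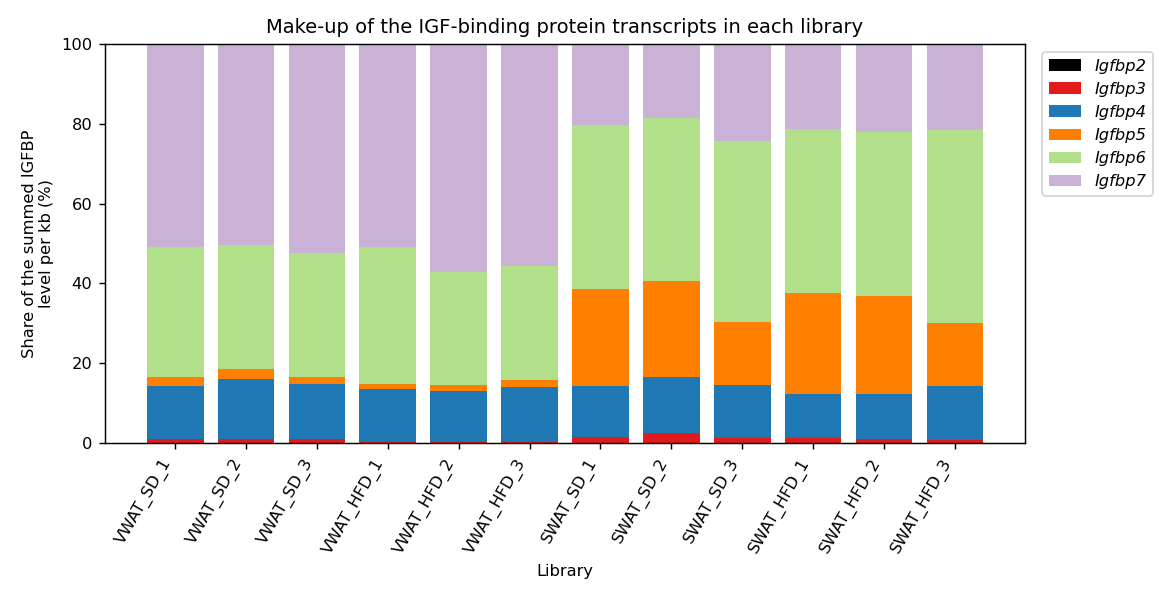
Share of the summed CPM per kb of the 6 binding proteins (y axis, %) in each of the 12 libraries (x axis), with colours for genes. Igfbp7 takes 50.5 to 52.4% of the VWAT_SD bars and 18.6 to 24.2% of the SWAT_SD bars, and Igfbp5 is broad only in SWAT.

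Other genes of the pathway were read from 5 lists of 30 genes, of which 27 were counted and tested. On the diet in VWAT 5 rose and none fell, with a median log2 change of 0.13 beside -0.017 over all genes, of which 8.64% rose. The protease Adam12, which can cut IGFBP3 and IGFBP5, rose 1.8-fold in VWAT, from 149, 174 and 171 to 285, 321 and 282 CPM (log2 change 0.85, SE 0.118, adjusted p = 0.00103). It rose in SWAT too, 1.68-fold (0.75, SE 0.118, adjusted p = 0.0201). The SWAT call of Adam12 was lost without any 1 of SWAT_SD replicates 1 to 3 or SWAT_HFD replicates 1 and 2 (adjusted p 0.0516 to 0.108).

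H19, an imprinted noncoding RNA that shares a control region with Igf2, rose in each depot. In VWAT it went from 4.76, 4.76 and 4.91 CPM to 27.7, 25.0 and 6.99, so that VWAT_HFD replicate 3 was close to SD (log2 change 2.05, SE 0.474, adjusted p = 0.0126). In SWAT it went from 11.8, 14.4 and 12.7 CPM to 102, 65.0 and 27.6 (2.31, SE 0.466, adjusted p = 0.0376). Its VWAT result no longer passed without VWAT_SD replicate 3 (adjusted p = 0.0523), VWAT_HFD replicate 1 (0.0501) or VWAT_HFD replicate 2 (0.059). The SWAT call was lost in 9 of 20 alternatives, among them limma voom (0.116) and the omission of any 1 VWAT_SD library or of any SWAT library but SWAT_HFD replicate 3 (0.0592 to 0.178). Igf2 itself did not pass in either depot, as given above. Plagl1, an imprinted zinc finger gene known to act on Igf2 and H19, rose 2.56-fold in VWAT, from 14.6, 21.6 and 15.3 to 42.7, 60.1 and 28.7 CPM (1.36, SE 0.278, adjusted p = 0.00699). In SWAT Plagl1 did not pass (0.37, edgeR adjusted p = 0.566), nor did its interaction (0.98, edgeR adjusted p = 0.601).

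The growth hormone axis induces Igf1 in many tissues. Its kinase gene Jak2 rose 1.39-fold in VWAT, from 60.7 ± 5.14 to 84.1 ± 3.28 CPM (adjusted p = 0.00361), and the feedback inhibitor Socs2 rose 1.41-fold (adjusted p = 0.0419). In SWAT neither passed, with log2 changes of 0.36 for Jak2 (edgeR adjusted p = 0.0695) and 0.15 for Socs2 (0.715). The interaction for Jak2 was 0.12 (edgeR adjusted p = 0.914). Socs2, the fifth gene to pass, lost its call in 7 of 20 alternatives. These were library size alone (adjusted p = 0.0825), the fit of 6 libraries (0.0734) and the omission of VWAT_SD replicate 2 or 3, VWAT_HFD replicate 1 or 2 or SWAT_SD replicate 2 (0.0569 to 0.182). The receptor gene Ghr was lower in VWAT than in SWAT, at 64.0 to 69.6 against 114 to 139.7 CPM on SD (log2 difference -0.95, SE 0.105, adjusted p = 1.5e-05). On HFD its difference was -0.93 (adjusted p = 1.8e-05). None of the 4 other receptors and 6 adaptors listed passed on the diet in either depot.

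Of the 27 genes, 5 were higher and 9 lower in VWAT on SD, and 6 and 9 on HFD. The shares of all genes were 13.2% higher and 12.5% lower on SD, and 13.4% each on HFD. Pappa, the protease that cuts IGFBP4, was 3.48-fold higher in VWAT on SD (20.9 to 26.9 against 5.55 to 8.28 CPM, adjusted p = 0.000407) and 5.18-fold higher on HFD (adjusted p = 6.2e-05). Grb14, an adaptor that inhibits insulin receptor signalling, was 6.57-fold lower in VWAT on SD (0.868 to 1.22 against 6.45 to 8.43 CPM, adjusted p = 4.2e-07) and 6.22-fold lower on HFD. Plagl1 was 3.72-fold lower on SD (adjusted p = 0.000197) and 1.88-fold lower on HFD (adjusted p = 0.0245). Insrr, the insulin receptor-related receptor, was 1.46-fold higher in VWAT on SD (adjusted p = 0.0371) and 2.29-fold higher on HFD (adjusted p = 0.000241). The SD count of 14 was 9 without SWAT_SD replicate 1 or 2. On the diet in SWAT 2 of the 27 passed, beside 1.11% of all genes, and 1 or 0 where the calls of H19 or Adam12 were lost as above. On the diet in VWAT the count of 5 was 3 without VWAT_SD replicate 3, VWAT_HFD replicate 1 or VWAT_HFD replicate 2. It was 11, 10 of them higher, without VWAT_HFD replicate 3.

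**Figure D4:**
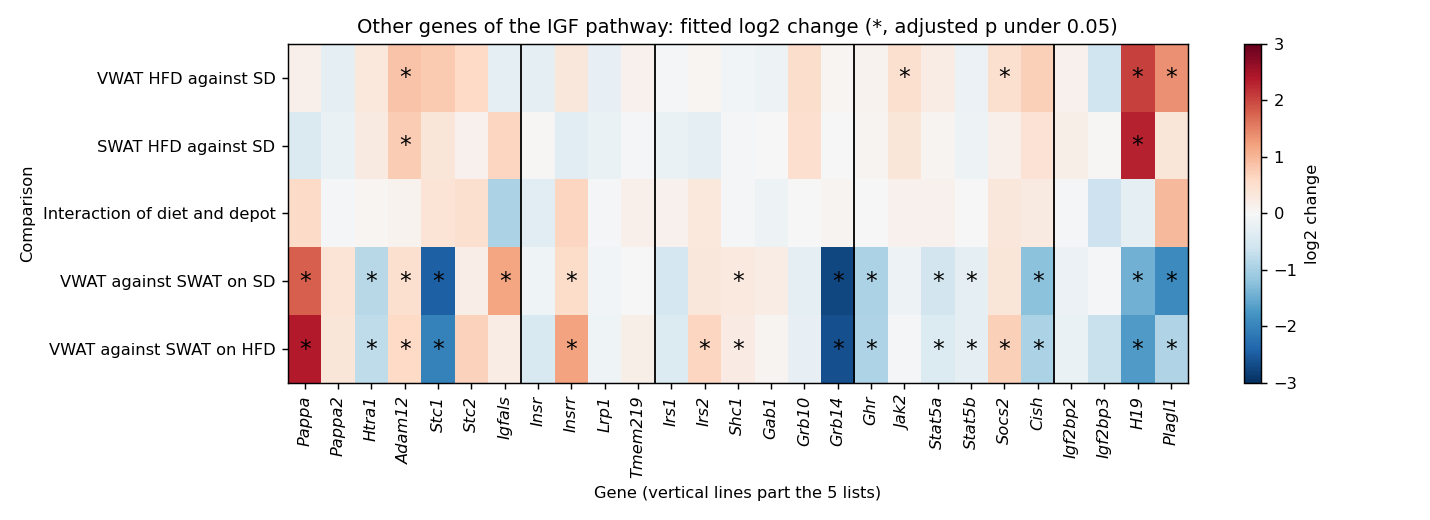
Fitted log2 change (colour, from -3 in blue to 3 in red) of the 27 other pathway genes (x axis, lists parted by lines) in the 5 comparisons (y axis); asterisks mark genes that passed. Adam12 and H19 carry asterisks in both diet rows, and most asterisks stand in the depot rows.

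Over the 12 libraries, the genes whose log2 CPM followed Igfbp3 most closely among 9447 genes were Tgfbi (Pearson r = 0.985), Snx21 (0.966), Arvcf (0.963), Rarg (0.963) and Slco2b1 (0.962). Tgfbi is a matrix protein and Rarg a retinoic acid receptor. Each of the 5 had its highest group mean in SWAT_SD and its lowest in VWAT_HFD, as Igfbp3 did. Tgfbi had means of 394, 237, 143 and 45.3 CPM in SWAT_SD, SWAT_HFD, VWAT_SD and VWAT_HFD. For Igf1 the closest were Actn3, Bend5 and Mmd2 (each r = 0.989), and Penk and Ankrd35 (each 0.987). The first 3 were near the floor in SWAT. Mmd2 had 0 to 2 reads per SWAT library, and Actn3 and Bend5 had SWAT means of 0.562 to 1.05 CPM. Penk, which encodes the enkephalin precursor, had means of 767, 474, 126 and 105 CPM in VWAT_SD, VWAT_HFD, SWAT_SD and SWAT_HFD. These correlations are descriptions over libraries that fall into 2 depots.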

How the data were processed

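TopHat, HTSeq and the mm9 build are named in the submitters' processing notes, while versions, annotation and strand setting are not given in the sources used here. Whole-number counts of 75 bp reads for 14398 genes, not normalised, were deposited in a single table. Its 3 entries without a gene name (no feature 3.53 to 5.57%, ambiguous 1.71 to 1.95%, not unique 14.98 to 20.81% per library) did not enter any total or test. Filtering with filterByExpr by group kept 14266 genes. They were fitted with edgeR 4.0.16 (R 4.3.3), quasi-likelihood F test, robust, TMM, over 12 libraries and 4 groups, with 5 contrasts. "Passed", "rose" and "fell" mean a Benjamini-Hochberg adjusted p under 0.05 over all genes; SE is the log2 change over the root of F. The fit was tested on simulated data. Alternatives were DESeq2 1.42.0 (size factors, Wald test), library size alone, no filter, limma 3.58.1 voom, only the 6 libraries compared, a replicate block, and libraries left out. Whether libraries came from separate experiments is not labelled, so p-values measure the spread between these pools. Replicates differed by more than counting noise.

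The main fit used no pairing of libraries. On SD, same-numbered VWAT and SWAT libraries deviated together from their group means over all genes (r = 0.32, 0.28 and 0.56). VWAT_SD replicate 1 with SWAT_SD replicate 2 had r = 0.15, and VWAT_SD replicate 2 with SWAT_SD replicate 1 had 0.19. The replicate numbers were taken as pairs on SD only in the alternatives with a replicate block. Between diets, same-numbered SWAT libraries had r = 0.06, 0.16 and 0.21, and same-numbered VWAT libraries had -0.11, 0.00 and -0.03. Between depots on HFD the values were -0.09, 0.19 and 0.02. Named genes were all members, up to 4 passing pathway genes with the lowest adjusted p per comparison, and the 5 genes most like Igfbp3 and Igf1. Socs2 and the markers were named besides. The members and lists were chosen with earlier results of these data known. Igfbp1, Igfbpl1 and Igf2bp1 were not analysed here.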

Additional observations from a re-analysis of the deposited data

How the results depend on the processing

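Of 900 recomputed values for the 9 members in 5 comparisons, 882 stayed on the same side of the threshold, 10 lost a call, 8 gained one and none reversed. In VWAT on the diet the member count of 2 was 1 to 2 with single libraries left out. The count over all genes, 2228, was 757 to 4266 there, 1246 with only the 6 libraries compared and 4054 without VWAT_HFD replicate 3 and SWAT_HFD replicate 2 together. In SWAT the member count of 0 was 1 with library size alone, DESeq2 or a replicate block (Igfbp3, adjusted p = 0.0468 with the block), and 0 to 1 with single libraries left out. Over all genes the 159 of SWAT were 263 with library size alone, 536 with DESeq2, 12 with limma voom, 352 with 6 libraries, 247 with the replicate block, 249 with both libraries out and 0 to 615 with single libraries out. For the interaction the 0 over all genes was 35 with DESeq2, 1 with the block, 46 with both libraries out and 0 to 135 with single libraries out. Between depots on SD the 3669 genes were 6662 in the 6 libraries with a replicate block, and on HFD the 3830 were 6954 with library size alone. The block on 12 libraries changed no other member's call, and the 6-library fit with the block added that of Igf2r. Scaling by library size alone changed the split of calls from 1232 up and 996 down to 799 and 1822 in VWAT, from 138 and 21 to 101 and 162 in SWAT, from 1880 and 1789 to 4279 and 1118 between depots on SD, and from 1918 and 1912 to 5830 and 1124 on HFD. The causes were not tested. Depth limits Igfbp2 and Igf2 most.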

Other observations

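Within groups, the libraries differed along transcript length. Over 8974 genes with a mean of at least 5 CPM, the deviation of a library from its group mean had a Spearman correlation with exon length of -0.60 in VWAT_SD replicate 3, -0.64 in SWAT_SD replicate 3, -0.55 in VWAT_HFD replicate 1 and -0.40 in SWAT_HFD replicate 3. In the remaining libraries it was -0.08 to 0.51. An exon length was found for 84.1% of tested genes. Genes share their library here, so these values are descriptions.

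The members followed it in part. In SWAT_SD replicate 3 the long transcripts of Igf1r (11409 bases of exon), Igf2r (8887) and Igfbp5 (6006) were the lowest of the group, at 11.5, 174 and 2699 CPM. The short transcripts of Igfbp6 (1112) and Igfbp7 (1209) were the highest, at 1437 and 831 CPM. Igf1 (9904) and Igfbp4 (3924) went against this, at 467 and 1458 CPM the highest of their group, and so did the shorter Igfbp3 (3130), at 116 CPM the lowest. In VWAT_HFD replicate 1 the short Igfbp6 was the highest of its group, at 661 CPM, but the short Igfbp7 the lowest, at 1061 CPM. The fitted log2 changes themselves had a correlation with length of -0.05 for the diet in VWAT, 0.08 in SWAT, 0.09 for the depots on SD, 0.00 on HFD and -0.14 for the interaction. The part of transcript length in the spread of Igf1r, Igf2r and Igfbp5 was not tested.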
